A study of Drosophila melanogaster and Drosophila simulans and Drosophila yakuba with 12 samples.

Results

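The mir-31 family of fruit flies has 2 hairpins, mir-31a and mir-31b, and both were followed by name, with the species prefix dropped, in small RNA libraries of whole animals. They are 2 of 176 hairpins in the deposited alignments of Drosophila melanogaster, 2 of 136 in D. simulans and 2 of 80 in D. yakuba. Of their 4 mature arms, the 5p arms of both hairpins had reads and the 3p arms had none. Larvae in their last instar were taken 18 h before they form the puparium, the case of hardened skin in which a fly goes through metamorphosis. White prepupae were taken in the 1 h that follows. In D. melanogaster (strain Oregon-R) there were 2 samples of male prepupae, 2 of male larvae, 1 of female prepupae and 1 of female larvae. In D. simulans (strain 14021-0251.167) and in D. yakuba (strain 14021-0261.00) there was 1 sample of male prepupae and 1 of male larvae each. Each prepupal RNA of these 2 species was made into 2 technical libraries, which gives 12 libraries from 10 RNA samples. The labels name no mutation or drug in any group, and the number of animals behind a sample is not given in the sources used here.

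A microRNA is cut from a folded hairpin transcript in 2 steps, by Drosha in the nucleus and by Dicer in the cytoplasm, and the cuts fix the ends of the mature strand. The seed, bases 2 to 8 from the 5′ end, does most of the target pairing, so paralogs with the same seed are expected to share many targets, while a shift of the 5′ end gives the same hairpin another seed. The 3′ end can be trimmed or extended with untemplated bases after cutting. The vertebrate miR-31 has the same seed and has been studied mainly in epithelia and in cancers.

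The mature sequences of mir-31a and mir-31b differ at 1 of the 22 positions compared, position 15 from the 5′ end, which lies outside the seed. The 2 paralogs therefore share their seed, and the read sequences of one can still be told from those of the other: no distinct read sequence was listed for both. The annotated mature miRNA is 23 nt long for mir-31a and 22 nt for mir-31b, and base 23 is the same in both hairpins. In the BDGP6 assembly mir-31b lies on the minus strand at chrX:8993305-8993431. It lies within rdgA, the gene of a diacylglycerol kinase of photoreceptors, on the opposite strand, and within the noncoding gene lncRNA:CR43836 on the same strand, and it overlaps no exon of either, so its place is intronic. The hairpins of mir-31b are shown because they carry the reads that set the paralogs apart. They are printed as the deposited alignments give them, 5′ to 3′, first that of D. melanogaster with the mature miRNA in capitals and then the others with capitals at the bases that differ from it:
D. melanogaster mir-31b: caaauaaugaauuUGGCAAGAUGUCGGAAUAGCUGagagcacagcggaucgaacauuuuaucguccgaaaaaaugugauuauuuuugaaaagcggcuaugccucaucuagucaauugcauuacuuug
D. simulans mir-31b: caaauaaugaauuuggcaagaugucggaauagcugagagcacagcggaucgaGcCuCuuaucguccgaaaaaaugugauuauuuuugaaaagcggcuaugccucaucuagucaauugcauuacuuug
D. yakuba mir-31b: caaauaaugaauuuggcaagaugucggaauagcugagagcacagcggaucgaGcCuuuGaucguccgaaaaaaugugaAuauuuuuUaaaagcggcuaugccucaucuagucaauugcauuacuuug

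The 127-nt mir-31b hairpin differs from that of D. melanogaster at 3 bases in D. simulans, between positions 53 and 57, and at 5 bases in D. yakuba, between positions 53 and 87. None of these lies in the first 40 bases, which hold the whole mature miRNA. The 92-nt mir-31a hairpin has no difference in D. simulans and 2 differences in D. yakuba, both outside the mature miRNA. In the fold drawn in the deposited alignments, 18 of the first 22 mature bases of mir-31b are paired, all but positions 5, 11, 12 and 15. In mir-31a 19 are paired, all but positions 5, 11 and 21. In BDGP6 mir-31a lies on another chromosome than mir-31b, at chr2R:17783795-17783886 on the minus strand, and overlaps no other named gene.

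Libraries held 1423 to 48209 miRNA reads, which is shallow. Read counts on their own thus carry a counting error, given here as exact 95% Clopper-Pearson intervals. No molecular identifiers were used, so these intervals, and the limit of 3 counts used for a count of 0, cover counting error only. P-values measure the spread between these RNA samples. D. melanogaster females, D. simulans and D. yakuba had 1 RNA sample per stage. There no spread within a stage is measured, and the permutation of stage only swaps their labels. The 4-base index ligated to the 5′ end differs between groups: both male prepupal libraries of D. melanogaster carried TGAC and both male larval libraries ACTG. The female prepupal library carried GACT and the female larval library CTGA. In D. melanogaster index and stage thus cannot be told apart in either sex.

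Both 5p arms were abundant. miR-31a-5p had 21787 reads over the 12 libraries and miR-31b-5p had 6333. In D. melanogaster miR-31a-5p ranked between 2 and 5 and miR-31b-5p between 7 and 11 among the 338 arms of each library. In D. simulans and D. yakuba, over the 124 arms shared by the 3 species, the ranks were 3 to 4 for miR-31a-5p and 5 to 9 for miR-31b-5p. The 3p arms of both hairpins had 0 reads in all 12 libraries, which allows a share of up to 0.00622% in the deepest library and 0.211% in the shallowest. The 5p strand was thus the one detected for both paralogs, and the use of the 2 arms could not be compared between groups at this depth.

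In male prepupae of D. melanogaster miR-31a-5p took 17.7% and 13.7% of the reads, against 6.15% and 13.1% in male larvae. Female prepupae had 15.5%, against 5.89% in female larvae. The prepupal samples of this species were above the larval ones, although prepupal sample 2 and larval sample 2 lay within 1 percentage point. In D. simulans the summed prepupal libraries held 16.4%, against 12.6% in larvae. In D. yakuba they held 9.32%, against 8.90% in larvae, a difference that lies within the counting intervals.

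The share of miR-31b-5p varied less and did not follow the stage. In D. melanogaster males it was 3.68% and 4.16% in prepupae, against 3.92% and 5.20% in larvae. Females had 3.58% in prepupae, against 2.86% in larvae. D. simulans had 4.10% in prepupae, against 3.93% in larvae. D. yakuba had 2.27% in prepupae, against 3.99% in larvae. Prepupal and larval values overlapped for miR-31b-5p, and over all 10 RNA samples they overlapped for miR-31a-5p too. Among the 34 arms with reads enough to compare, 0 (0%) separated the 5 prepupal from the 5 larval samples by their share.

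**Figure D1:**
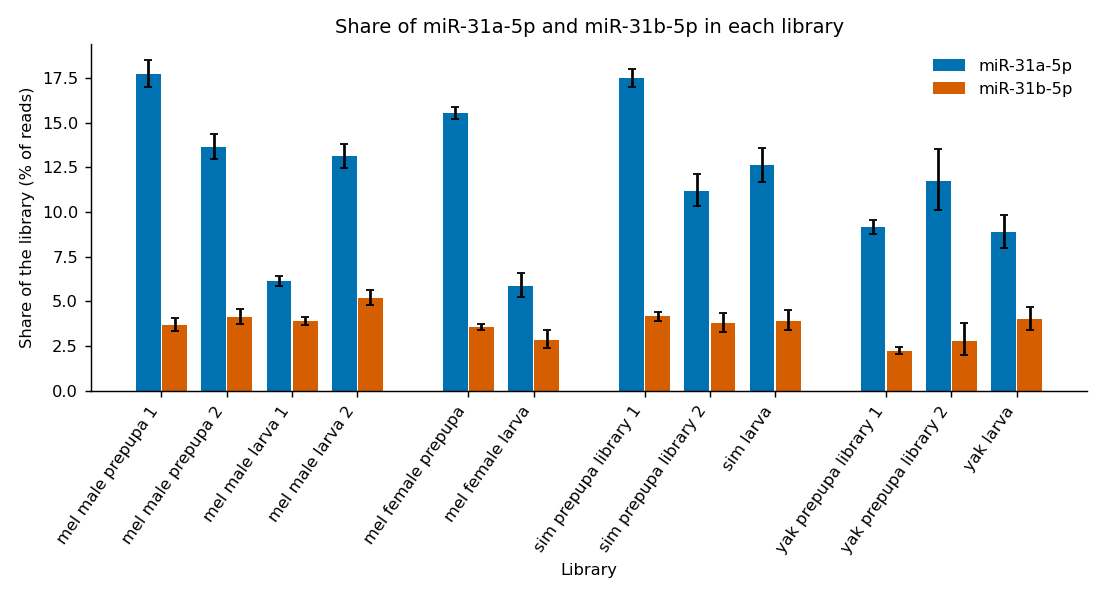
Share of all miRNA reads taken by miR-31a-5p and miR-31b-5p in each of the 12 libraries; bars are the percent of reads and error bars exact 95% intervals. mel, sim and yak are D. melanogaster, D. simulans and D. yakuba. All miRNA reads are those on the hairpins of the library's own species, 176, 136 and 80 in this order. miR-31a-5p has the higher bar in every library and miR-31b-5p stays between 2.23% and 5.20%.

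Tested across all arms, neither paralog passed the threshold in any comparison. In D. melanogaster the stage change, prepupa minus larva, was a log2 change of 1.33 ± 1.09 (SE) for miR-31a-5p, with an adjusted p of 0.720 by edgeR's quasi-likelihood test over 3 prepupal and 3 larval libraries. For miR-31b-5p it was 0.42 ± 1.10 with an adjusted p of 0.962 in the same edgeR fit. Of the 58 arms tested 1 (1.72%) was called, and DESeq2 called 6. In males of the 3 species the stage change was 0.56 ± 0.50 for miR-31a-5p and −0.21 ± 0.45 for miR-31b-5p, with edgeR adjusted p of 0.582 and 0.817. There 0 of 44 arms (0%) were called by edgeR, an unadjusted p under 0.05 was found for 8, and 2 were called with DESeq2. Bulk RNA of whole animals cannot tell fewer cells that make a miRNA from less of it per cell.

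The sexes could be set against each other in D. melanogaster only. Female minus male, the log2 difference was −0.33 ± 1.16 (SE) for miR-31a-5p and −0.40 ± 1.18 for miR-31b-5p, with edgeR adjusted p of 0.940 and 0.927, against 1.72% of 58 arms called, with 1 by DESeq2. The difference between the sexes in their stage change was 1.10 ± 1.57 for miR-31a-5p and 0.92 ± 2.06 for miR-31b-5p, with edgeR adjusted p of 0.723 and 0.864, and 1.43% of 70 arms were called, with 2 by DESeq2. Beside these values, a list of 20 testis-rich miRNA hairpins summed to 0.0332% and 0.0424% of reads in the female libraries, with 8 and 1 members detected, against 0.123% to 0.310% in the male libraries, with 5 to 10 detected. The female larval value rests on 2 reads, with an interval of 0.00513% to 0.153%. It overlaps those of male larva 1 (0.0865% to 0.171%) and male prepupa 2 (0.0767% to 0.246%). The interval of the female prepupae, 0.0190% to 0.0539%, overlaps that of no male library. The part of the gonads in the sex values was not tested. The muscle list, mir-1 and mir-133, held 0.978% to 13.2% in prepupae and 5.66% to 13.2% in larvae of D. melanogaster, nearly all of it mir-1, and mir-133 had no read in 5 of the 6 libraries. The nervous system list, mir-124 and mir-1000, held 0.0519% to 0.388% in prepupae, against 0.0791% to 0.530% in larvae, so neither list separated the stages.

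Between species no difference passed either. D. simulans minus D. melanogaster gave −0.06 ± 0.61 (SE) for miR-31a-5p and −0.39 ± 0.56 for miR-31b-5p, with edgeR adjusted p of 0.948 and 0.600, where 6.82% of 44 arms were called, with 6 by DESeq2. D. yakuba minus D. melanogaster gave −0.13 ± 0.61 for miR-31a-5p and −0.19 ± 0.56 for miR-31b-5p, with edgeR adjusted p of 0.892 and 0.852, where 0 of 44 arms (0%) were called, an unadjusted p under 0.05 was found for 9, and 4 were called with DESeq2. With TMM scaling the median log2 difference of all tested arms was −0.85 in the first comparison and −0.28 in the second, so both paralogs lay above the median arm. With RLE scaling all 4 of these values turned positive, and no direction between species is given. In neither species did the difference of its stage change from that of D. melanogaster pass the test: the 4 terms ranged from −0.85 to 0.05 on the log2 scale with standard errors of 2.001 to 2.046, and edgeR called 0 of 51 arms (0%), with 5 and 1 arms at an unadjusted p under 0.05 and 1 and 0 called by DESeq2.

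The ratio of the paralogs within a library is free of depth and of the other miRNAs. mir-31a gave more reads than mir-31b in every library. The geometric mean of the ratio was 3.03 over the 10 RNA samples, and the log2 ratio averaged 1.60 ± 0.53 (SD, n = 10), higher than 0 in 10 of 10 samples (exact sign-flip permutation test, two-sided, p = 0.00195, the smallest this design allows, and 0.00781 after adjustment over 4 ratio tests).

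The ratio was higher in prepupae in each species and sex. Male prepupae of D. melanogaster had 4.82 and 3.29 reads of mir-31a for each read of mir-31b, against 1.57 and 2.52 in male larvae. Female prepupae had 4.34, against 2.06 in female larvae. D. simulans had 3.99 in prepupae, against 3.21 in larvae. D. yakuba had 4.11 in prepupae, against 2.23 in larvae. The 5 prepupal RNA samples lay between 3.29 and 4.82 and the 5 larval samples between 1.57 and 3.21, without overlap, though the gap between the lowest prepupal and the highest larval sample is smaller than their counting intervals. The geometric mean was 4.08 in prepupae and 2.25 in larvae. Within species and sex the mean log2 difference, prepupa minus larva, was 0.86, a 1.81-fold ratio. The log2 ratio averaged 2.03 ± 0.20 in prepupae and 1.17 ± 0.38 in larvae (SD, n = 5 each, exact permutation of stage within species and sex, two-sided, p = 0.0417, the smallest this design allows). Adjusted over the 4 ratio tests the permutation p was 0.0833, which misses the threshold of 0.05. With the male samples of D. melanogaster paired by their number, which goes with the library pool, the exact permutation p was 0.0625 for the same difference, which is the smallest that pairing allows. The unadjusted exact permutation p was 0.0833 without D. melanogaster male prepupa 1 (a log2 difference of 0.75), without male larva 1 (0.73) and without D. simulans prepupal library 1 (0.77). Without either female library, the D. simulans larva or the D. yakuba larva, 0.0833 is the smallest p possible.

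**Figure D2:**
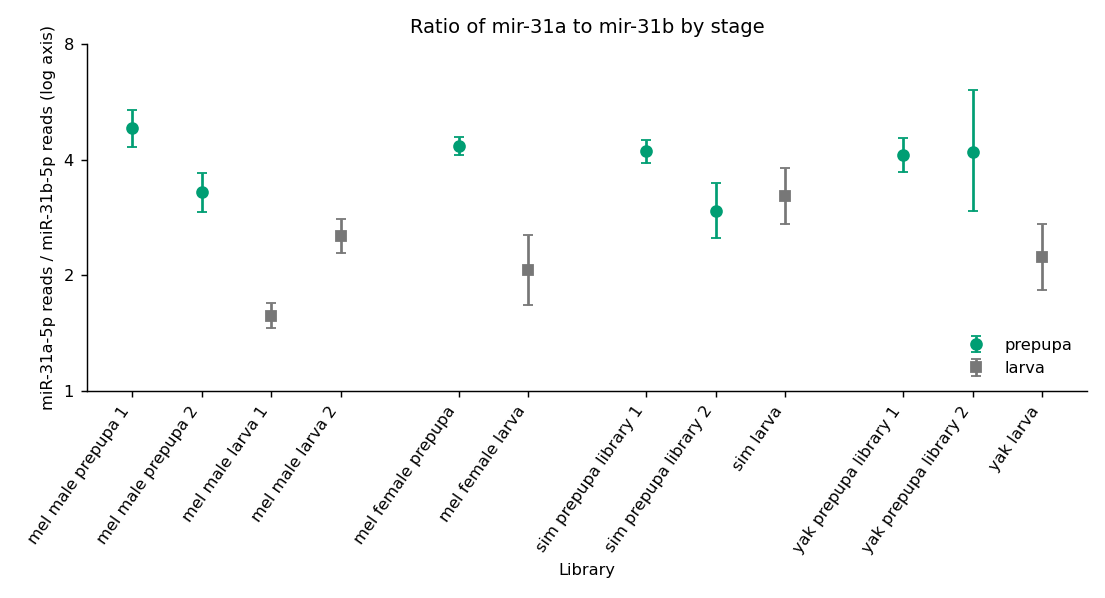
Ratio of miR-31a-5p to miR-31b-5p reads in each library on a log axis, with exact 95% intervals; circles are prepupae and squares larvae. Prepupae lie higher in each species and sex, except the second technical library of D. simulans prepupae, at 2.94 against 3.21 in the larvae.

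The same comparison over all pairs of measured arms sets the scale. Of 561 pairs of arms, 2 (0.357%) separated prepupal from larval samples by their ratio in either direction, mir-31a with mir-31b among them. A permutation p under 0.05 by the same exact test was reached by 58 pairs (10.3%). A stage difference at least as large as that of the mir-31 pair was found in 301 pairs (53.7%), so its size was not unusual. Pairs share arms and are not independent.

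By group the log2 difference of the ratio, prepupa minus larva, was 1.00 in D. melanogaster males, 1.08 in females, 0.31 in D. simulans and 0.89 in D. yakuba. The technical libraries put a scale on the D. simulans value. Its 2 prepupal libraries, made from 1 RNA, had ratios of 4.20 (3.92 to 4.51) and 2.94 (2.49 to 3.48), with intervals that do not overlap. This log2 difference, library 2 minus library 1, was −0.52, which is larger than the stage difference in this species. The 2 prepupal libraries of D. yakuba had 4.11 (3.72 to 4.55) and 4.18 (2.94 to 6.05). Among libraries with 1 index, the stage difference was 0.39 in D. simulans (GACT) and 0.88 in D. yakuba (CGAT), but prepupae and larvae then came from different pools. The part of index and pool in the ratio was not tested.

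Neither species nor sex gave a ratio difference beyond the spread. The log2 ratio averaged 1.72 ± 0.41 (SD, n = 4) in D. simulans and D. yakuba males and 1.49 ± 0.68 (SD, n = 4) in D. melanogaster males (exact permutation within stage, two-sided, p = 0.389, where the smallest possible is 0.0556). It averaged 1.58 ± 0.76 in the 2 female samples and 1.49 ± 0.68 in the 4 male samples of D. melanogaster (SD, exact permutation within stage, two-sided, p = 0.889, where the smallest possible is 0.111).

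Other paralog pairs did not separate the stages. For mir-92a and mir-92b the mean log2 ratio was −1.27 in prepupae and −2.46 in larvae, with overlapping samples. For mir-2a and mir-2b it was −0.12 in prepupae and 0.08 in larvae. mir-276a exceeded mir-276b by 5.07 in prepupae and 5.64 in larvae, and mir-263a exceeded mir-263b by 10.12 in prepupae and 8.24 in larvae, both on the log2 scale with a pseudocount of 0.5, since the b partner had 0 reads in at least 1 sample. mir-13a lay below mir-13b by a log2 ratio of −5.43 in prepupae and −5.17 in larvae. In D. melanogaster alone, mir-9a to mir-9b was 3.50 in prepupae and 1.95 in larvae, and mir-9b to mir-9c −2.84 in prepupae and −0.98 in larvae. Each of these mir-9 ratios changed in the same direction in males and females, by 1.55 and −1.85 within sex, though the samples overlapped. The mir-31 paralogs were the only one of these 8 pairs with more than 100 reads of each partner in every sample, so the others carry more counting error.

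The levels of the paralogs were compared over the 10 samples with those of the other measured arms, as log2 TMM CPM (reads scaled to library size). The arms most like miR-31a-5p were miR-263a-5p, with a Pearson r of 0.92, miR-276a-3p with 0.75 and miR-9a-5p with 0.72. Those most like miR-31b-5p were miR-282-5p with 0.75, miR-276a-3p with 0.70 and miR-9a-5p with 0.70. The paralogs themselves correlated at 0.45, which ranked 8 among the 33 other arms for miR-31a-5p and 5 for miR-31b-5p. These are descriptions over 10 samples, and the arms share library, depth and scaling.

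The 5′ end of both miRNAs was precise, and it was more uniform in mir-31a. Over all libraries 99.1% of miR-31a-5p reads and 97.0% of miR-31b-5p reads began at the annotated base. Per RNA sample the share at this start averaged 99.4% ± 0.628 in mir-31a and 96.7% ± 1.995 in mir-31b (SD, n = 10), higher in mir-31a in 10 of 10 samples (exact sign-flip permutation test, two-sided, p = 0.00195, the smallest possible, 0.00293 after adjustment over 3 measures). Starts 1 base later, which followed the index as given below, also lower this share. In the D. simulans prepupal library with index GACT it was 97.6% for mir-31a and 93.2% for mir-31b. In the ACTG library of the same RNA it was 99.8% and 96.9%. No stage difference passed: prepupae minus larvae was −0.17 percentage points for mir-31a and 0.17 for mir-31b, with exact permutation p of 0.667 and 0.750.

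The main reads of miR-31b-5p and those with a shifted start are shown because a shifted start gives another seed. The seed, bases 2 to 8 of each form, is in capitals:
annotated 22-nt form: uGGCAAGAugucggaauagcug
21-nt form: uGGCAAGAugucggaauagcu
23-nt form: uGGCAAGAugucggaauagcuga
2 bases earlier: uUUGGCAAgaugucggaauagcu
1 base later: gGCAAGAUgucggaauagcu

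The form that starts 2 bases earlier set mir-31b apart. In miR-31a-5p 0 reads began 2 bases and 2 reads 1 base before the annotated start, which is 0.00918% of its reads. In miR-31b-5p 104 reads began 2 bases and 8 began 1 base before it, which is 1.77%. Of the 104 reads, 77 were the 23-nt form printed above, which was found in all 12 libraries and ends at the same base as the 21-nt form.

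Earlier starts made up 0% of miR-31a-5p in 9 of the 10 samples and 0.0267% in the female prepupae, 2 of 7493 reads. They were a small share of miR-31b-5p in every group. There male prepupae of D. melanogaster had 1.79% and 2.67%, against 0.787% and 3.04% in male larvae. Female prepupae had 1.22%, against 1.48% in female larvae. D. simulans had 1.88% in prepupae, against 2.14% in larvae, and D. yakuba 2.86% in prepupae, against 4.03% in larvae. Prepupal and larval values overlapped. The lowest miR-31b-5p sample was thus above the highest miR-31a-5p sample. This measure was chosen after the reads had been seen and is given as a description.

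Starts 1 base later followed the index. The 3 libraries with index GACT held 169 of the 175 such reads of miR-31a-5p and 71 of the 74 of miR-31b-5p. In D. simulans prepupae the GACT library had 2.36% of miR-31a-5p and 5.11% of miR-31b-5p reads at this start, and the other library of the same RNA, with index ACTG, had 0 reads of either there, with upper bounds of 0.645% for miR-31a-5p and 1.88% for miR-31b-5p. The D. simulans larvae, also with GACT, had 0.832% of miR-31a-5p and 4.81% of miR-31b-5p at this start. The GACT library of D. melanogaster female prepupae had 0.894% of miR-31a-5p and 0.694% of miR-31b-5p. Other arms whose first base is U, like both mir-31 miRNAs, showed it too: 2.05% to 6.57% of their reads began 1 base later in the GACT libraries, against 0.0650% to 0.350% in the other 9 libraries. Arms with another first base had 0.202% to 0.406% in the GACT libraries and 0.190% to 0.873% in the others. The D. yakuba libraries with index CGAT had 0.133% and 0.148% for the arms that start with U. Prepupal library 1 of D. yakuba, with CGAT, had 3 such reads of miR-31a-5p (0.151%) and 3 of miR-31b-5p (0.619%). The D. yakuba larvae, also with CGAT, had 2 of miR-31a-5p (0.602%) and 0 of miR-31b-5p. A cause was not tested.

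**Figure D3:**
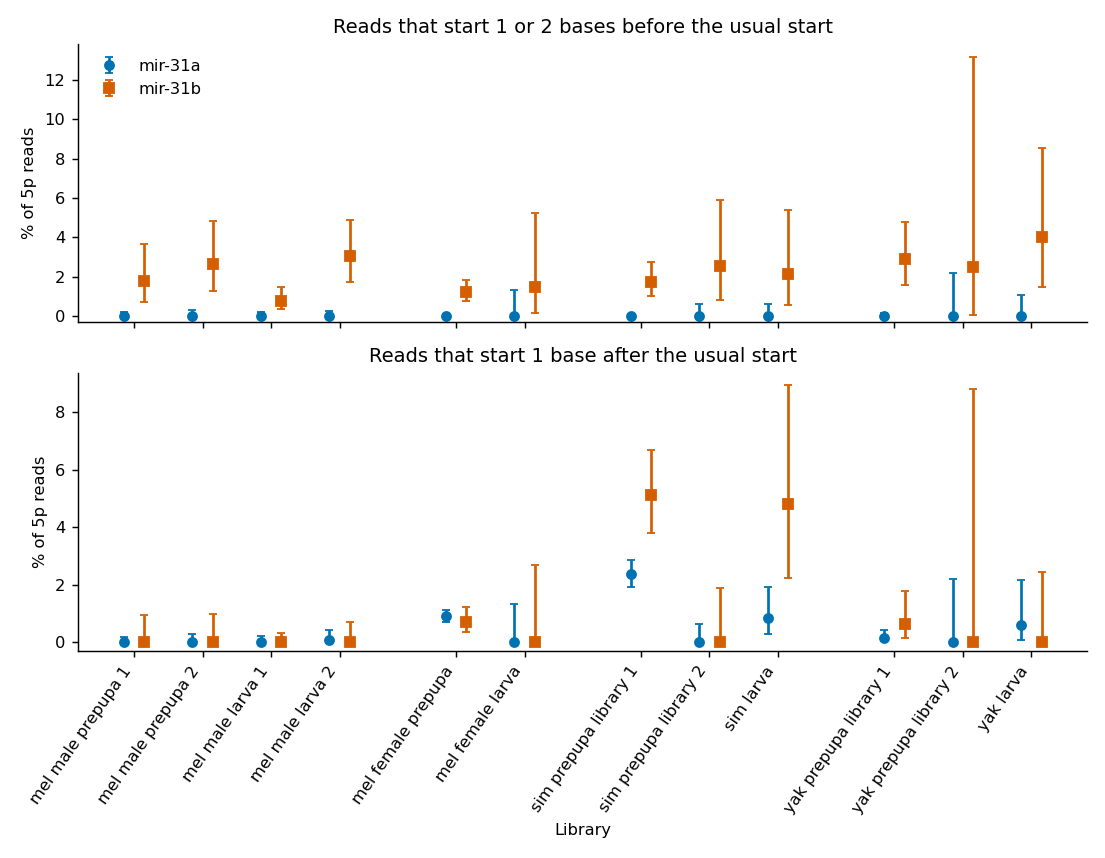
Percent of 5p reads that start 1 or 2 bases before the annotated base (top) and 1 base after it (bottom), for mir-31a (circles) and mir-31b (squares) in each library, with exact 95% intervals. Earlier starts are found for mir-31b in all 12 libraries, between 0.787% and 4.03%, and later starts of mir-31b are highest in the 2 D. simulans libraries with index GACT.

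The 3′ end varied far more than the 5′ end. Mir-31 reads were 18 to 25 nt long, and 3 lengths held most of those from the annotated start. For miR-31a-5p 22.7% were 21 nt, 37.99% were 22 nt and 37.3% were 23 nt. For miR-31b-5p 40.4% were 21 nt, 26.4% were 22 nt and 30.7% were 23 nt. The leading length differed between libraries. For mir-31a it was 23 nt in 6 libraries and 22 nt in 4. The 6 were all prepupae and male larva 2 of D. melanogaster, and library 2 of the D. simulans and of the D. yakuba prepupae. In the D. yakuba libraries with index CGAT the leading length was 21 nt in prepupae, and 21 and 22 nt were level in larvae. The mir-31a lead was only a few reads in D. simulans prepupae. Library 1 had 1384 reads of 22 nt and 1383 of 21 nt. Library 2 had 216 reads of 23 nt and 213 of 22 nt. For mir-31b 23 nt led in the 4 D. melanogaster libraries of the first pool and 21 nt in the other 8 libraries.

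miR-31a-5p was on average the longer. The mean length per RNA sample was 22.03 ± 0.24 nt in mir-31a and 21.77 ± 0.42 nt in mir-31b (SD, n = 10), longer in mir-31a in 8 of 10 samples by 0.26 nt (exact sign-flip permutation test, two-sided, p = 0.0293, also 0.0293 after adjustment over 3 measures). Without D. melanogaster male larva 2, male prepupa 2, the D. simulans larva or the D. yakuba larva the exact permutation p was 0.0547, 0.0547, 0.0586 and 0.0508, so this call rests on each of them. In the other 2 samples the order was the opposite. Male larva 1 of D. melanogaster had 27.7% of miR-31a-5p and 52.3% of miR-31b-5p reads at 23 nt, and the female larvae 23.1% and 43.6%. Both libraries were of larvae and of the first pool.

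No stage difference in mean length exceeded the spread. Mir-31a averaged 22.10 ± 0.32 nt in prepupae and 21.96 ± 0.15 nt in larvae, and mir-31b 21.73 ± 0.43 nt in prepupae and 21.81 ± 0.46 nt in larvae (SD, n = 5 each, exact permutation p of 0.167 and 0.542). With library 2 alone of the D. simulans and D. yakuba prepupae, the mir-31a difference was 0.29 nt, with an exact permutation p of 0.0417 before adjustment. Library preparation moved with the lengths. In the 2 D. yakuba prepupal libraries, from 1 RNA, 16.98% (15.4 to 18.7) and 47.9% (40.1 to 55.8) of miR-31a-5p reads were 23 nt long. In the 2 D. simulans prepupal libraries the shares were 28.7% (27.3 to 30.1) and 37.96% (33.96 to 42.1). These differences between libraries of the same RNA exceed their counting intervals, and their part in the stage and species values was not tested.

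**Figure D4:**
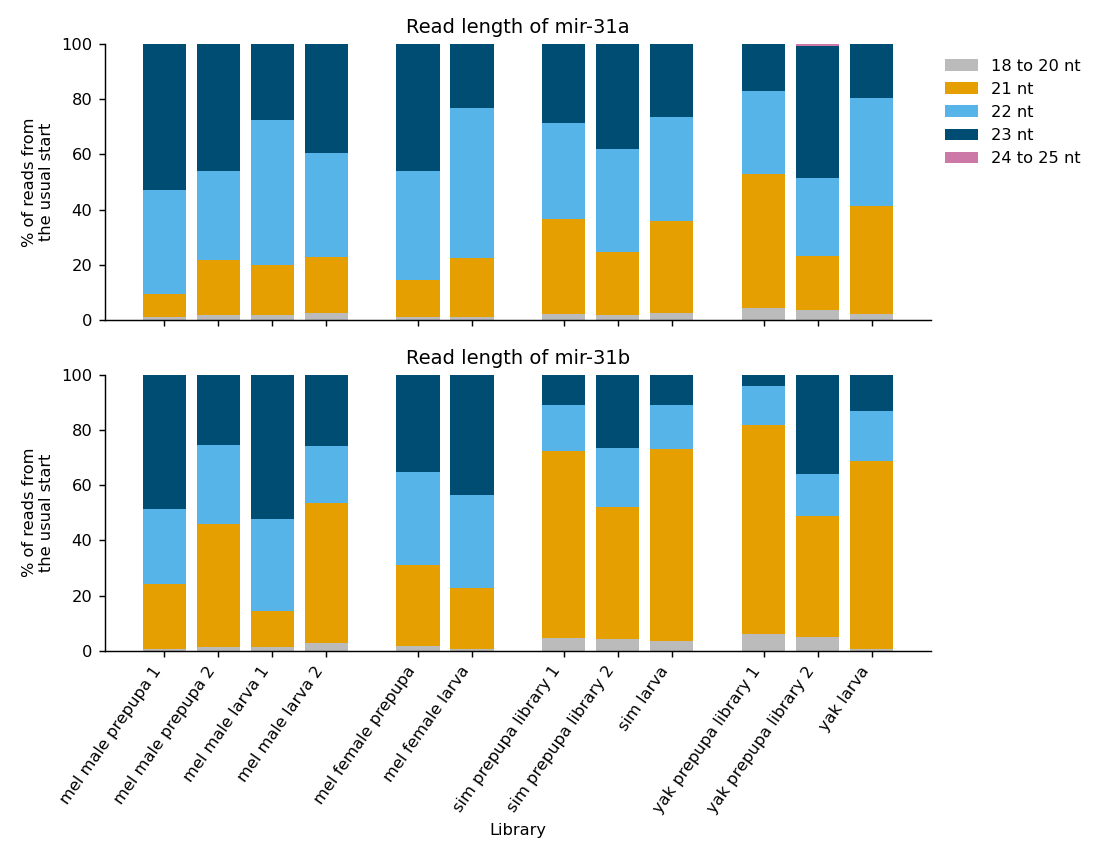
Length of reads from the annotated start for mir-31a (top) and mir-31b (bottom), as percent of these reads in each library. The 23-nt share of mir-31a is 16.98% in library 1 and 47.9% in library 2 of the same D. yakuba prepupal RNA. Mir-31b has the higher 21-nt share in all libraries but male larva 1 of D. melanogaster. In the female larvae of that species the shares are nearly level, 21.8% in mir-31b and 21.3% in mir-31a.

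Untemplated 3′ additions were listed for both paralogs. The authors list an addition only on the whole annotated sequence, 23 nt in mir-31a and 22 nt in mir-31b, and an A added to the 22-nt miR-31b-5p equals its templated base 23, so it cannot be seen as an addition. The lists are thus not alike for the paralogs. miR-31a-5p had 520 reads with 1 to 3 added bases, 2.33% of its reads, of which 337 carried U or UU and 168 carried A or AA. miR-31b-5p had 19, 0.299% of its reads, of which 14 carried U. Relative to reads with the whole annotated sequence, 6.06% of miR-31a-5p and 1.16% of miR-31b-5p reads carried one.

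Per RNA sample the share with an addition averaged 2.29% ± 0.886 in mir-31a and 0.166% ± 0.243 in mir-31b (SD, n = 10), higher in mir-31a in 10 of 10 samples (exact sign-flip permutation test, two-sided, p = 0.00195, the smallest possible, 0.00293 after adjustment over 3 measures). In miR-31a-5p male prepupae of D. melanogaster had 3.48% and 2.84%, against 3.03% and 2.57% in male larvae, and female prepupae 2.66%, against 2.80% in female larvae. D. simulans had 1.60% in prepupae, against 2.12% in larvae, and D. yakuba 0.917% in prepupae, against 0.896% in larvae. In this share the D. melanogaster samples were the highest at both stages, and prepupae and larvae overlapped (exact permutation p = 0.958). The order of the species was not tested with 1 RNA sample for each stage, and the 2 D. yakuba prepupal libraries had 0.698% (0.382 to 1.17) and 3.47% (1.28 to 7.40), so that it also varied with the library. Per read with the whole annotated sequence, prepupae had 5.66% to 6.37% in D. melanogaster, 5.26% in D. simulans and 4.57% in D. yakuba. Larvae had 6.31% to 11.1% in D. melanogaster, 7.60% in D. simulans and 4.41% in D. yakuba. By that measure the D. simulans larvae lay within the D. melanogaster range. Another 5 reads of miR-31a-5p carried 4 or more added bases. Their additions were ucgu in 1 read and ucguaug in 3, the first bases of the 3′ adapter, and ucacug in 1 read of a library with index ACTG, and they were left out of the shares. A single added U, in 315 reads of miR-31a-5p and 14 of miR-31b-5p, equals the first base of that adapter and was kept. Whether some of these bases come from the adapter was not tested.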

How the data were processed

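Small RNA of 16 to 28 nt was ligated to a 5′ adapter with a 4-base index, pooled and sequenced, per the labels. The authors aligned the reads to the hairpins of miRBase release 15 of each species, per the file headers, using Bowtie 0.12.5, per the submitters' processing notes, with other steps and genome builds not given in the sources used here. Expected counts fill the deposited summary table, per hairpin arm, with reads of several loci divided among them. The deposited alignment texts give whole reads for each read sequence and library, which are not normalised, and list untemplated additions apart. Columns of 4 libraries of another series, 8 in the summary table, were not used.

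Reads were summed for each arm from the alignment texts, each library on its own species. All 48 mir-31 values were identical in the summary table. Technical libraries of 1 RNA were summed, which left 10 RNA samples. After TMM scaling and filterByExpr, counts were tested by the quasi-likelihood test of edgeR 4.0.16 (limma 3.58.1, R 4.3.3), with Benjamini-Hochberg adjustment over all arms tested and a threshold of 0.05. Terms were stage and sex in D. melanogaster, and species and stage over the 124 arms shared by the species. DESeq2 1.42.0 was an alternative. Paralog ratios used a pseudocount of 0.5. These and the read ends, for samples with at least 20 reads of the paralog, were tested by exact permutation over RNA samples with numpy 2.4.6. The exact intervals were computed with scipy 1.17.1. The planned ratio of 5p to 3p reads was not computed, since the 3p arms had 0 reads, so the read-end families hold 6 stage tests and 3 paralog tests. The tests were checked on simulated data.

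In D. melanogaster males, sample numbers 1 and 2 stand for different library pools, and deviations of same-number samples correlated at 0.644 over 58 arms, so a replicate block by number was tried. In the edgeR fit of males of the 3 species this block took technical libraries of 1 RNA as separate samples. There the number does not stand for the pool in D. simulans and D. yakuba. The other alternatives were RLE scaling, no filter, summary counts, single technical libraries, each library left out, a pseudocount of 1, stage permuted over all samples and at least 50 reads. Named miRNAs were the mir-31 arms, 7 other paralog pairs and the 3 arms most like each paralog among arms with reads in all 10 samples and 100 reads in all. Marker lists were muscle, nervous system and testis-rich miRNAs. Members, lists and tests were chosen with earlier results of these data known.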

Additional observations from a re-analysis of the deposited data

Results flagged for a closer look

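Of 26 sets of 5 RNA samples examined for a sample far from the others, 4 had one, where chance gives about 1 in 20 for continuous values. That rate does not hold for 3 of the 4, in which the other samples are all at 0 and any read would stand apart. Among prepupae, D. simulans had 4.26% of miR-31b-5p reads 1 base after the annotated start, against 0% to 0.694% in the other 4 samples. Among larvae, D. simulans had 4.81% at this start, against 0% in the others. Both D. simulans samples hold a library with index GACT. Among prepupae, the female sample of D. melanogaster had 0.0267% of miR-31a-5p reads at an earlier start, against 0% in the others, which rests on 2 reads. Among larvae, male sample 1 of D. melanogaster had 0.175% of miR-31b-5p reads with an addition, against 0% in the others, which also rests on 2 reads.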

How the results depend on the processing

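Log2 changes, log2 ratios, percentage points and lengths in nt are given as in the report. The paralog ratio against 1, and the paralog differences in the usual start and in additions, kept direction and call under all alternatives run. The ratio by stage kept its direction, at 0.77 with only technical library 2 (exact permutation p = 0.0833), where the smallest possible is 0.0417, and 0.86 with the replicate block (exact permutation p = 0.0625, the smallest possible there, so it says nothing about stability). Under that block the sex differences turned to 0.16 (miR-31a-5p) and 0.0167 (miR-31b-5p). D. simulans minus D. melanogaster turned positive for miR-31a-5p and miR-31b-5p: 0.41 and 0.12 with RLE, 0.41 and 0.12 with DESeq2, 0.53 and 0.19 without a filter, 0.77 and 0.44 with only technical library 1, 0.21 and 0.0880 with only technical library 2. D. yakuba minus D. melanogaster turned to 0.0619 and 0.0110 with RLE and 0.0612 and 0.00813 with DESeq2. Stage by species for D. simulans turned to −0.0382 (miR-31b-5p, summary counts), 0.22 (miR-31a-5p, only technical library 1) and −0.61 (miR-31b-5p, only technical library 2), and for D. yakuba to 0.45 (miR-31a-5p) and 0.37 (miR-31b-5p) with only technical library 1. For stage in the read ends, mir-31a additions turned to −0.0288 with only technical library 1 and to −2.34 when counted per read with the whole annotated sequence, an alternative added after seeing the data. With only technical library 2 the mir-31a usual start turned to 0.247, the mir-31a length passed at 0.290 (exact permutation p = 0.0417), the mir-31b length turned to 0.0991, and starts 1 base later to −0.123 in mir-31a and −0.824 in mir-31b.

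Leaving out each library in turn gave these ranges. The ratio by stage lay between 0.73 and 0.99, and the ratio by sex between −0.0557 and 0.24. Stage differences were −0.326 to 0.219 (usual start) and 0.0909 to 0.251 (length) in mir-31a, −0.182 to 0.791 and −0.192 to 0.0395 in mir-31b, −0.133 to 0.529 for mir-31a additions, −0.642 to 0.0514 for earlier mir-31b starts, and −0.0953 to 0.515 (mir-31a) and −0.709 to 0.316 (mir-31b) for later starts. The paralog difference in length was 0.234 to 0.328. In D. melanogaster the stage change was 0.58 to 1.91 (miR-31a-5p) and −0.38 to 0.71 (miR-31b-5p), stage by sex for miR-31a-5p 0.44 to 1.47, and the sex differences −0.95 to 0.39 (miR-31a-5p) and −0.93 to 0.26 (miR-31b-5p). In males the stage change was 0.23 to 0.79 (miR-31a-5p) and −0.40 to 0.0390 (miR-31b-5p). D. simulans minus D. melanogaster was 0.0428 to 0.76 (miR-31a-5p) and −0.43 to 0.54 (miR-31b-5p), D. yakuba minus D. melanogaster −0.57 to 0.24 and −0.73 to 0.16, and miR-31b-5p stage by species −0.58 to 0.46 in D. simulans and −1.01 to 0.0247 in D. yakuba. No edgeR value passed its threshold in any of these. The causes were not tested. Depth limits shares in the shallowest libraries, and the 3p arms in all.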

Other observations

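The paralog ratio depended on the read length at which it was taken. Among 21-nt reads mir-31a had 1.44 to 2.74 reads for each of mir-31b in the prepupal libraries and 1.04 to 2.17 in the larval libraries, and these overlapped. Among 22-nt reads it had 3.82 to 9.11 in prepupae and 2.49 to 7.96 in larvae. Among 23-nt reads it had 4.32 to 17.8 in prepupae and 0.838 to 8.32 in larvae. At 23 nt mir-31b exceeded mir-31a in male larva 1 of D. melanogaster only, at 0.838, and the next lowest library was that of the female larvae, at 1.10. These values were looked at after the lengths had been seen, and no test is given.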
